A study of Mus musculus with 4 samples.

Results

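Trp53 and 9 genes that p53 is known to activate (Cdkn1a, Mdm2, Ccng1, Zmat3, Eda2r, Sesn2, Phlda3, Trp53inp1 and Aen) were followed in murine small cell lung cancer (SCLC) lines that lack Trp53 by design. The genes were taken by symbol from the expression table, and all 10 were found among its 54641 gene symbols. Bulk RNA sequencing was available for 4 untreated lines from an autochthonous mouse model on a C57BL/6 background, based on conditional deletion of Rb1 and Trp53 by intratracheal delivery of an adenovirus carrying Cre. By the design of the model every line carries both deletions, so that no line meant to have intact Trp53 serves as a control. Lines P1, P4 and P5 came from primary lung tumors (n = 3 lines) and line M1 came from a liver metastasis (n = 1 line), each from a separate mouse by the series' design text. The names of the deposited P1 and P5 columns share a number whose meaning is not given, so that a link between these 2 libraries was not tested. Each line was grown in RPMI medium with fetal serum and sequenced as 1 library, and the labels give neither age nor sex of the mice. Levels are in counts per 1000000 assigned reads (CPM).

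The protein p53 is a transcription factor that is kept low by MDM2, is stabilized by DNA damage and other stress, and then activates genes for cell cycle arrest, apoptosis, repair and its own removal. Many of these genes are known to have other activators as well. In SCLC, loss of p53 goes together with loss of the retinoblastoma protein.

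A binding element of p53 is built from a pair of decamers of 10 bases each. The RefSeq promoter windows (GRCm38.p6, from 250 bases before to 50 bases after an annotated start) were searched for the consensus p53 decamer, which reads alike on both strands. Windows were found for 8 of the 10 genes, and the genes without one were Zmat3 and Trp53inp1. A decamer was present in 6 of the 10 windows of these genes (5 genes), against 8.36% of all 32851 windows, and a pair with a spacer of at most 13 bases was present in Cdkn1a alone, against 0.0731% of all windows. As the genes were picked for being p53 targets, this share is a description. Overlapping windows of Aen hold the same decamer, which is counted in each of them. The sequences with a match are shown because the decamer is the unit that p53 binds, with the decamers in capitals. In Cdkn1a, the window of the upstream start is printed whole (chr17:29090729-29091028, plus strand). Its decamers are 12 bases apart and begin 2863 and 2841 bases before the second annotated start. The downstream decamer is followed directly by tgacatgttc, which departs from the consensus at its first base only. The search asked for a full match, so this stretch is not in capitals, and which decamers p53 binds was not tested. The other genes are shown with 20 bases on either side, for Trp53 at chr11:69580264-69580313 (plus strand), Mdm2 at chr10:117710915-117710964 (minus strand), Ccng1 at chr11:40755442-40755491 (minus strand) and Aen at chr7:78895917-78895966 (plus strand).
Cdkn1a: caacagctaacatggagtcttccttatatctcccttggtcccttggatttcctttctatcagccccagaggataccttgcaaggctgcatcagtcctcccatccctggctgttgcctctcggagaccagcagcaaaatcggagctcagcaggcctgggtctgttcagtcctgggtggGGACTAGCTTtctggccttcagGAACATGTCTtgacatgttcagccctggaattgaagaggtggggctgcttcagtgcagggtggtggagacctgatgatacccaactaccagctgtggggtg
Trp53: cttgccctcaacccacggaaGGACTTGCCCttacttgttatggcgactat
Mdm2: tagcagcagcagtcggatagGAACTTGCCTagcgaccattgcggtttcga
Ccng1: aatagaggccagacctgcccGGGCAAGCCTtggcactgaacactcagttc
Aen: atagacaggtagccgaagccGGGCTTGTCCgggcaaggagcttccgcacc
A match says only that these letters are in the window, and the lack of one in Eda2r, Sesn2 and Phlda3 says nothing on binding elsewhere in these genes.

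The libraries held between 9527011 and 13890726 assigned reads, but between 7985 and 20578 gene symbols above 0. P4 and M1 held far fewer than P1 and P5. Among the 7534 genes that reached 10 CPM in P1 as well as P5, P4 had 19.8% at 0 and M1 had 10.1%. Among the 4188 genes that reached 1 CPM in P1 as well as P5 but stayed under 10 CPM in 1 or both, the shares at 0 were 68.5% for P4 and 53.7% for M1. The SCLC identity of the lines was uneven by their markers, since the neuroendocrine genes Chga, Chgb and Calca were above 0 in P5 but listed at 0 in P1, P4 and M1, whereas Neurod1, Insm1 and Dll3 were highest in M1, at 134, 74.0 and 25.4 CPM. Syp reached 5.91 CPM in M1 and no more than 0.268 CPM elsewhere, Uchl1 was at 5.14, 0, 66.4 and 76.1 CPM in P1, P4, P5 and M1, and Ncam1 was between 299 and 1060 CPM in all 4 lines. Epithelial genes were uneven as well. The keratin genes Krt8 and Krt18 were above 0 in every line, but at 1540 and 1100 CPM in P1 against 32.5 and 32.6 CPM in P5. Epcam was at 1.26, 0, 27.7 and 5.37 CPM in P1, P4, P5 and M1, respectively. Cdh1 was at 14.6, 0, 49.6 and 28.5 CPM in the same order. Immune cell markers summed to 181 CPM in M1 and to between 0.072 and 12.1 CPM in the primary lines. In M1, 7 of 15 markers were above 0, with Lyz2, Fcer1g and Laptm5 highest at 47.4, 39.2 and 39.1 CPM. None of these genes exceeded 0.735 CPM in a primary line. Csf1r, Cd4, Cd68 and Tyrobp were the others above 0 in M1, and Csf1r and Cd68 were also above 0 in P1 and P5. The markers at 0 in M1 included Ptprc, Itgam and Adgre1. Fibroblast markers summed to 1100 CPM in P5 and to between 33.7 and 115 CPM in the other lines. The part of such cells in the levels below was not tested, and in bulk RNA fewer cells of a type and less RNA per cell cannot be told apart.

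Trp53 (chromosome 11, 69580348 to 69591873) was examined first, as the gene deleted in the model, with this and all positions given on GRCm38.p6. It was at 0.210 (P1), 0.144 (P4) and 0.260 CPM (P5) and was listed at 0 in M1. These levels stand for 2, 2, 3 and 0 reads, and 3 reads would be 0.269 CPM in M1. The 95% Poisson intervals of all 4 lines overlapped, with an upper bound of at most 0.761 CPM, so that no order of the lines could be told at this depth. Poisson intervals here cover counting error only. Neither the deleted exons nor the exons from which these reads came were given, so that the reads do not test the deletion, and Trp53 stayed below the minimum of 1 CPM for testing. The 9 target genes were all above that minimum in at least 1 primary line, and each was above 0 in P1 and P5.

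**Figure D1:**
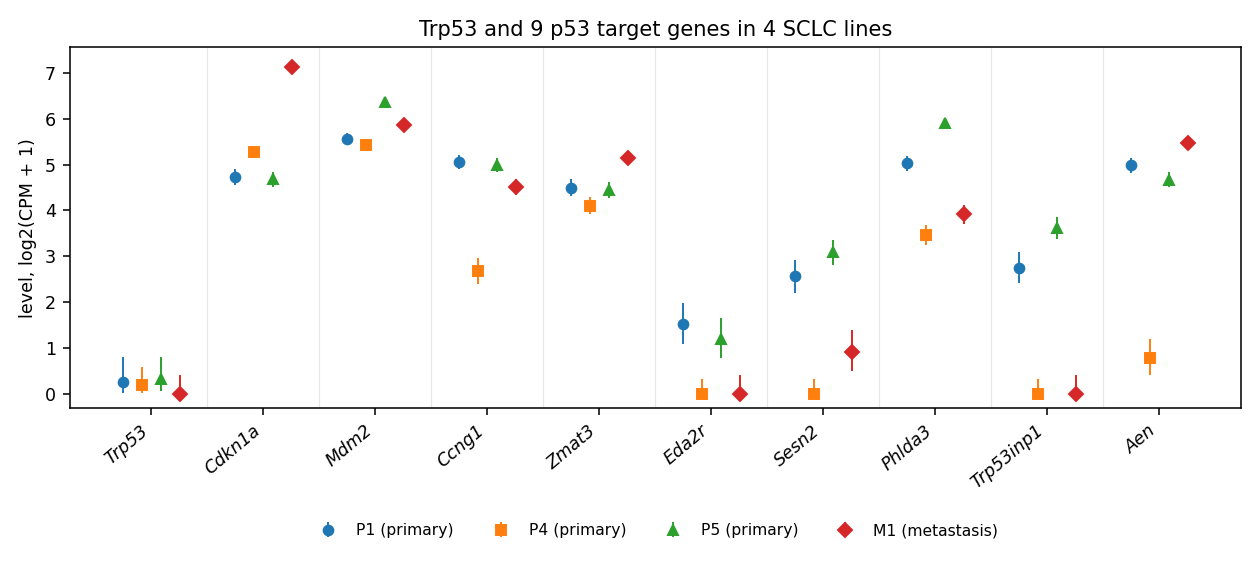
Level of Trp53 and the 9 target genes in each line, as log2(CPM + 1) on the vertical axis, with 1 point per library and bars for the 95% Poisson interval of its reads. Trp53 is near or at 0 in every line, Cdkn1a is highest in M1 at 138 CPM, and Eda2r and Trp53inp1 are listed at 0 in both P4 and M1.

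The feedback genes Mdm2 and Ccng1 were above 0 in every line. Mdm2 (chromosome 10, 117688875 to 117710758), which encodes the ubiquitin ligase that removes p53, was at 46.0, 42.1, 81.1 and 57.3 CPM in P1, P4, P5 and M1, respectively. M1 thus lay inside the range of the primary lines, whose mean was 56.4 ± 21.4 CPM (SD, n = 3), and only P1 and P4 had overlapping Poisson intervals. The difference in log2(CPM + 1) was 0.08 ± 0.62 (SE; limma, adjusted p = 0.946), and its sign turned without P1 (-0.03) or without P4 (-0.09).

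Ccng1 (chromosome 11, 40748552 to 40755309) encodes cyclin G1, which recruits a phosphatase to MDM2. It was at 32.2, 5.47, 30.7 and 21.8 CPM in P1, P4, P5 and M1, respectively. P4 was the low line, and the Poisson intervals of P1 and P5 overlapped. The log2 difference of M1 was 0.27 ± 1.33 (SE; limma, adjusted p = 0.917) and turned to -0.51 without P4.

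Cdkn1a (chromosome 17, 29090979 to 29100722) encodes p21, the inhibitor of cyclin-dependent kinases through which p53 arrests the cell cycle. It was at 25.5, 37.4, 24.6 and 138 CPM in P1, P4, P5 and M1, respectively. M1 stood above all primary lines, with a Poisson interval from 131 to 145 CPM, whereas the interval of the highest primary line P4 ended at 40.8 CPM. The level in M1 was 4.71 times the mean of the primary lines, which was 29.2 ± 7.15 CPM (SD, n = 3), and 3.67 times that of P4. The log2 difference was 2.22 ± 0.57 (SE; limma, adjusted p = 0.353), and M1 was higher than 3 of 3 primary lines. It was the only one of the 9 target genes with an unadjusted p under 0.05, a share to be read against 4.53% of all tested genes that were higher in M1 and 5.15% that were lower at that level. After adjustment over all genes it did not pass the threshold of 0.05, and its log2 difference lay between 2.12 and 2.41 when each primary line was left out in turn.

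Zmat3 (chromosome 3, 32334792 to 32365665) encodes a zinc finger protein that binds RNA and acts in growth suppression by p53. It was at 21.6, 16.2, 20.8 and 34.1 CPM in P1, P4, P5 and M1, respectively. The primary lines were close to each other, at 19.5 ± 2.93 CPM (SD, n = 3), and the Poisson interval of M1 (30.8 to 37.7 CPM) lay above theirs. Against the spread over lines, the log2 difference of 0.78 ± 0.68 (SE; limma, adjusted p = 0.721) was not past the threshold. Zmat3 overlaps 4930429B21Rik, and whether strand was used in counting was not stated.

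Among the target genes of apoptosis, Aen separated P4 from the other lines. Aen (chromosome 7, 78895927 to 78911209), which encodes an apoptosis-enhancing nuclease, was at 30.6, 0.720, 24.5 and 43.2 CPM in P1, P4, P5 and M1, respectively. P4 had 10 reads of this gene, and M1 lay above P1 and P5. The log2 difference of M1 was 1.99 ± 2.12 (SE; limma, adjusted p = 0.721) and was 0.64 without P4.

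Eda2r and Trp53inp1 had levels in P1 and P5 alone. Eda2r (chromosome X, 97333837 to 97377234), which encodes a receptor of the tumor necrosis factor receptor superfamily, was at 1.89 and 1.30 CPM in P1 and P5 and was listed at 0 in P4 and M1. Trp53inp1 (chromosome 4, 11156441 to 11174379), which encodes a nuclear stress protein that acts in apoptosis and autophagy, was at 5.77 and 11.3 CPM in P1 and P5 and was likewise listed at 0 in P4 and M1. For Trp53inp1, 55 and 130 reads were counted in P1 and P5, and the Poisson intervals of both zeros lay below those of P1 and P5. Zeros were common for genes of such levels in P1 and P5 (at least 1 CPM in both, under 10 CPM in 1 or both). Of these genes, 68.5% were at 0 in P4 and 53.7% in M1. The fit gave log2 differences of -0.91 ± 0.85 for Eda2r and -2.13 ± 1.89 for Trp53inp1 (SE; limma, adjusted p = 0.721 for both). Without P4 these were -1.37 and -3.19, whereas Eda2r was at -0.60 without P1 and Trp53inp1 at -1.38 without P5. Eda2r overlaps Gm18111, so that reads of the shared part cannot be told apart without strand.

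The target genes that restrain growth signals were also higher in P1 and P5. Phlda3 (chromosome 1, 135766085 to 135769134), which encodes an inhibitor of AKT, was at 31.7, 10.1, 59.0 and 14.1 CPM in P1, P4, P5 and M1, respectively. All 4 Poisson intervals were apart, and P4 and M1 were both below P1 and P5. Sesn2 (chromosome 4, 132492804 to 132510456), which encodes a sestrin that restrains mTORC1 when leucine is low, was at 4.93 and 7.55 CPM in P1 and P5 and 0.895 CPM in M1 and was listed at 0 in P4. For Sesn2 the Poisson intervals of P1 and P5 overlapped (3.62 to 6.56 and 6.05 to 9.31 CPM), which is no test of a difference. The log2 differences of M1 were -0.88 ± 1.22 for Phlda3 and -0.97 ± 1.75 for Sesn2 (SE; limma, adjusted p = 0.75 and 0.766), and were -1.55 and -1.91 without P4 but -0.33 and -0.36 without P5.

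Across the target genes, M1 was above every primary line for 3 of 9 (Cdkn1a, Zmat3 and Aen), against 19.2% of the 14373 genes that reached 1 CPM in a primary line. It was below every primary line for 0 of 9, against 21.5% of those genes. The second count rested on P4. Against P1 and P5 alone, M1 was above both lines for 3 of 9, against 24.7% of genes, and below both for 5 of 9 (Ccng1, Eda2r, Sesn2, Phlda3 and Trp53inp1), against 61.4% of genes. The median log2 difference of the 9 genes was 0.08, against -0.53 for all 14888 genes tested. With limma, 0 of 9 target genes passed the threshold, as did 0 of all tested genes (0%), whereas 674 were higher and 767 lower at an unadjusted p under 0.05. The single M1 library gives no spread of its own, so the fit lends it that of the primary lines, and with 3 lines against 1 an exact permutation test could not go below p = 0.25.

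**Figure D2:**
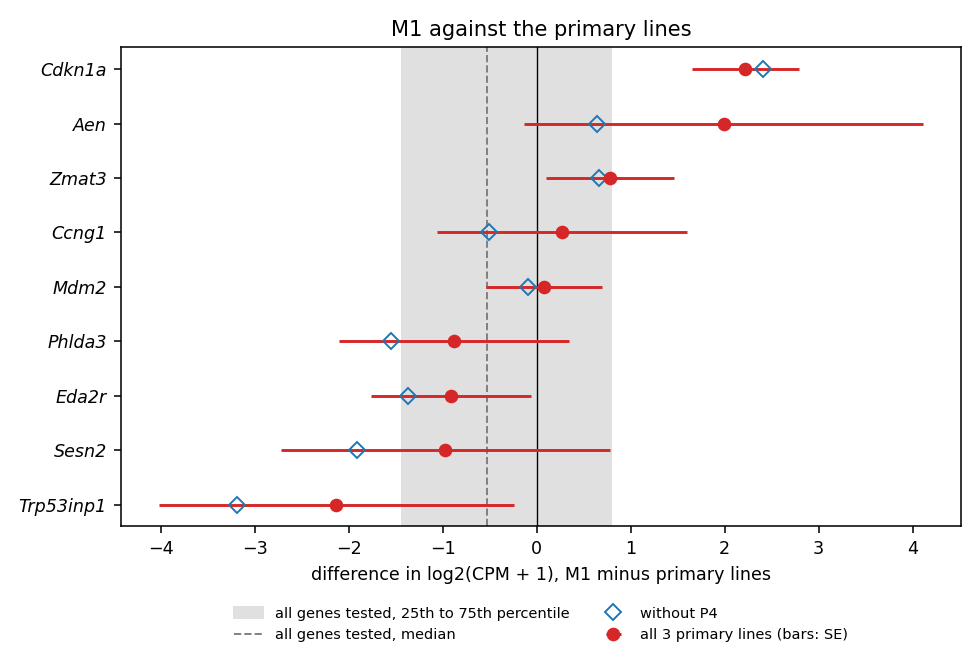
Difference in log2(CPM + 1) between M1 and the primary lines for the 9 target genes (red points, bars for the SE), and the same without P4 (blue diamonds). The grey band spans the 25th to 75th percentile of all genes tested (-1.43 to 0.79) with their median at -0.53. Cdkn1a is at 2.22, and Ccng1 and Mdm2 change sign without P4.

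Lines were next compared within pairs of libraries with a like number of genes, with 1 library on each side and therefore no test. P5 and P1, whose column names share a number, were close for the target genes. None of the 9 differed by more than 1 on the log2(CPM + 1) scale, whereas 18.7% of all tested genes were higher by that step in P5 and 6.59% were lower. Cdkn1a, Zmat3 and Ccng1 differed by -0.05, -0.05 and -0.07, and the largest differences were those of Phlda3, Trp53inp1 and Mdm2, at 0.88, 0.86 and 0.80. M1 and P4 were farther apart. M1 was higher by more than 1 for 4 of 9 target genes, against 29.7% of all tested genes, and lower for 0 of 9, against 16.5%. The 4 higher genes were Aen (4.68), Cdkn1a (1.85), Ccng1 (1.82) and Zmat3 (1.03). Eda2r, Sesn2 and Trp53inp1 (0 in P4) and Aen (0.720 CPM in P4) could not be lower in M1 by that step. The same holds for the 7105 tested genes at 0 in P4. Of the 6 target genes that reached 10 CPM in P1 and P5, 0 were at 0 in P4 or M1, against 19.8% and 10.1% of all such genes. Of the 3 with lower levels there, P4 had 3 at 0 and M1 had 2, against 68.5% and 53.7%.

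**Figure D3:**
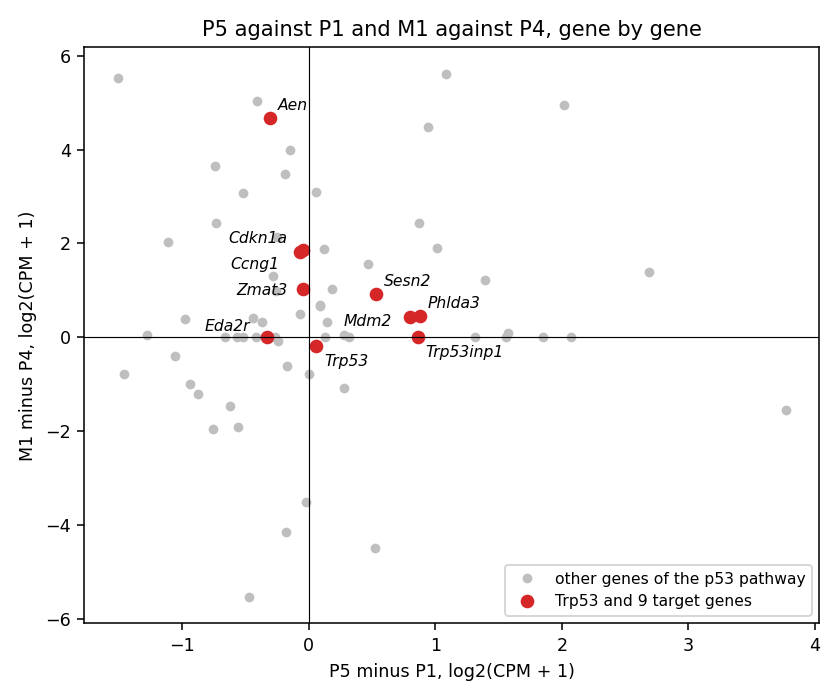
Difference in log2(CPM + 1) of P5 minus P1 (horizontal axis) and M1 minus P4 (vertical axis) for Trp53 and its 9 target genes (red) and the other tested genes of the p53 pathway (grey). The red points lie within 1 of 0 on the horizontal axis, and Aen reaches 4.68 on the vertical axis.

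By Euclidean distance of log2(CPM + 1) over the 4 lines, the genes nearest to Cdkn1a among the 8260 genes averaging 10 CPM or more were Mrpl50, Ndufaf4 and Plekha5, with distances of 0.52, 0.57 and 0.74. Mrpl50 was at 22.9, 29.3, 24.2 and 107 CPM in P1, P4, P5 and M1, respectively. With 4 points this is a description of the profile.

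Regulators of p53 and its family were then examined, as the wider pathway in which the target genes stand. Of 14 tested genes, M1 was above every primary line for 4 of the 13 with at least 1 CPM in a primary line and below for 3, with a median log2 difference of -0.46. In limma 0 passed the threshold, while 1 was higher (Trp73) and 2 were lower at an unadjusted p under 0.05. Over all genes, 19.2% were above and 21.5% below every primary line, and 4.53% were higher and 5.15% lower at that p. Cdkn2a encodes both p16INK4A and p19ARF, the latter an inhibitor of MDM2, and gene-level values cannot separate them. It was at 279, 1120, 831 and 1190 CPM in P1, P4, P5 and M1, respectively, and P1 was the low line. Mdm4, which encodes the partner of MDM2 in holding p53 inactive, was at 58.0, 32.8, 51.6 and 21 CPM in P1, P4, P5 and M1, respectively (log2 difference -1.10 ± 0.63, SE; limma, adjusted p = 0.721), below 3 of 3 primary lines.

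Atm encodes the kinase that signals double-strand breaks to p53. It was at 72.6 (P1), 53.8 (P4) and 52.2 CPM (P5) but at 0.179 CPM in M1, the lowest log2 difference of the regulators (-5.67 ± 0.71, SE; limma, adjusted p = 0.304). M1 was below 3 of 3 primary lines, and the difference again did not pass after adjustment. Chek1, which encodes a checkpoint kinase, was at 32.0 CPM in M1, but at 23.0 and 17.1 CPM in P1 and P5, and was listed at 0 in P4. Ppm1d, which encodes a phosphatase that dampens p53 signaling and is itself a p53 target, was at 20 and 14.8 CPM in P1 and P5 and was listed at 0 in P4 and M1. Trp53bp1, which encodes a protein of the double-strand break response, was at 17 and 18.7 CPM in P1 and P5 and was also listed at 0 in P4 and M1. Of all genes that reached 10 CPM in P1 and P5, 19.8% were at 0 in P4 and 10.1% in M1.

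The family members Trp63 and Trp73 encode factors that can bind the same elements as p53. Trp63 was at 1.47 and 0.955 CPM in P1 and P5 and was listed at 0 in P4 and M1. Trp73 had 2.69 CPM in M1 and 0.0868 CPM in P5 and was listed at 0 in P1 and P4 (log2 difference 1.84 ± 0.44, SE; limma, adjusted p = 0.339). As Trp73 entered the test through M1 alone, its direction was fixed by the filter, and the median of the regulators and family includes it.

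**Figure D4:**
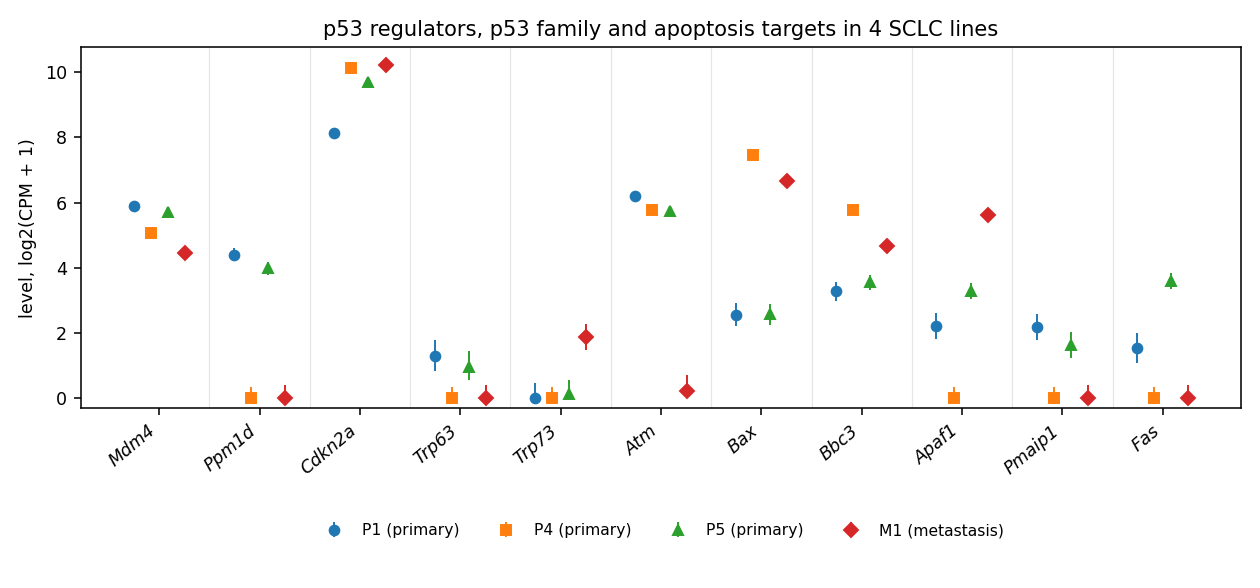
Level of regulators of p53, the p53 family and apoptosis targets in each line, as log2(CPM + 1) on the vertical axis, with 1 point per library and bars for the 95% Poisson interval. Cdkn2a is high in every line, Atm is near 0 in M1 alone, and Bax is higher in P4 and M1 than in P1 and P5.

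Other p53 targets of apoptosis had differences of both signs. Of 11 tested genes, M1 was above every primary line for 3 and below for 0 (all genes, 19.2% and 21.5%), with a median log2 difference of 0.21, and 0 passed the threshold (limma; 1 was higher and 0 lower at an unadjusted p under 0.05, against 4.53% and 5.15% of all genes). Bax, which encodes the effector that permeabilizes the mitochondrial membrane, was at 4.93 and 4.95 CPM in P1 and P5 but at 173 CPM in P4 and 100 CPM in M1. Bbc3, which encodes the BH3-only protein PUMA, was at 8.71, 53.2, 10.8 and 24.6 CPM in P1, P4, P5 and M1, respectively. Both genes were thus higher in the lines with fewer detected genes, in contrast to the death receptor gene Fas and to Pmaip1, which encodes NOXA. Fas was at 1.89 and 11.1 CPM in P1 and P5, and Pmaip1 at 3.57 CPM and 2.08 CPM, and for each of them P4 and M1 were at 0. Pidd1, which encodes a scaffold for caspase-2, was at 4.93 and 3.91 CPM in P1 and P5 and likewise at 0 in P4 and M1. Of all genes with at least 1 CPM in P1 and P5 but under 10 CPM in 1 or both, 68.5% were at 0 in P4 and 53.7% in M1. Apaf1, which encodes the core of the apoptosome, was at 48.1 CPM in M1, but at 3.67 and 8.85 CPM in P1 and P5, and was listed at 0 in P4 (log2 difference 3.78 ± 1.87, SE; limma, adjusted p = 0.716). For Bax the log2 difference was 2.47 ± 2.42 (SE; limma, adjusted p = 0.721). It became 4.09 without P4, the line in which Bax was highest, and 1.66 without P1 or without P5.

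Targets of arrest and repair had the highest median of these lists, at 1.20 for 11 tested genes against -0.53 for all genes, and 6 of the 11 were at 0 in P4. This median includes Ddb2, which passed the filter through M1 alone. M1 was above every primary line for 6 of the 10 with at least 1 CPM in a primary line and below for 1 (all genes, 19.2% and 21.5%), and 0 passed the threshold (limma), with 1 higher (Ddb2) and 1 lower at an unadjusted p under 0.05, against 4.53% and 5.15% of all genes. Plk3, which encodes a polo-like kinase of the stress response, was at 15.0 CPM in M1, but at 3.57 and 3.12 CPM in P1 and P5, and was listed at 0 in P4. Ddb2, which encodes the sensor of ultraviolet damage, was at 10.1 CPM in M1, while P1, P4 and P5 had 0.446, 0 and 0.270 CPM, and entered the test through M1 alone, which fixed its direction (log2 difference 3.18 ± 0.78, SE; limma, adjusted p = 0.341). In the other direction, the repair endonuclease gene Ercc5 was at 20.4 (P1), 16.8 (P4) and 17.9 CPM (P5) and was listed at 0 in M1. So were 10.1% of all genes that reached 10 CPM in P1 and P5. Sfn, which encodes 14-3-3 sigma, was at 0.105 and 2.26 CPM in P1 and P5 and was listed at 0 in P4 and M1.

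Metabolic, stress and secreted targets had the lowest median, at -1.23 for 14 tested genes. M1 was above every primary line for 2 and below for 4 (all genes, 19.2% and 21.5%), and 0 passed the threshold (limma), with 0 higher and 1 lower at an unadjusted p under 0.05, against 4.53% and 5.15% of all genes. Pml, which encodes the scaffold of nuclear bodies, was at 59.3, 12.5, 58.3 and 0.179 CPM in P1, P4, P5 and M1, respectively (log2 difference -4.95 ± 1.33, SE; limma, adjusted p = 0.373). Sesn1, a sestrin gene related to Sesn2, was at 5.46 (P1), 21.7 (P4) and 8.24 CPM (P5) and was listed at 0 in M1. Sesn1 and Sesn2 thus differed in P4, where Sesn1 was highest and Sesn2 was listed at 0. Of all genes with at least 1 CPM in P1 and P5 but under 10 CPM in 1 or both, 68.5% were at 0 in P4 and 53.7% in M1. Rps27l was at 331 CPM in M1 against 156 ± 42.5 CPM in the primary lines (SD, n = 3), and its reads can be shared with the closely related Rps27. Ddit4, an inhibitor of mTORC1 signaling, was at 85.9 CPM in M1, while P1, P4 and P5 had 39.8, 22.3 and 81.1 CPM. Of the 6 noncoding targets on the list, 2 were tested, with a median of -0.85 and 0 past the threshold (limma) or at an unadjusted p under 0.05. Neat1 was at 406, 102, 818 and 156 CPM in P1, P4, P5 and M1, respectively, and Pvt1 was at 8.50 CPM in M1 and between 9.63 and 24.3 CPM in the primary lines.

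Finally, genes of mitosis that p21 lowers in cells with p53 were set beside Cdkn1a. Although Cdkn1a was highest in M1, these 10 genes were on both sides there, with M1 above every primary line for 2 and below for 2, near the shares over all genes of 19.2% and 21.5%, a median log2 difference of 0.08 and 0 past the threshold (limma) or at an unadjusted p under 0.05. Ccnb1 (cyclin B1) was at 42.0 CPM in M1, while P1, P4 and P5 had 124, 166 and 72.4 CPM. Bub1, a spindle checkpoint kinase gene, was at 14.6 CPM in M1 and between 17 and 36.4 CPM in the primary lines. Cdk1 was at 286 CPM in M1 against 170 ± 29.2 CPM in the primary lines (SD, n = 3). Ccnb2 (cyclin B2) was at 81.5, 65.3, 22.3 and 0.792 CPM in M1, P1, P5 and P4, respectively.

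**Figure D5:**
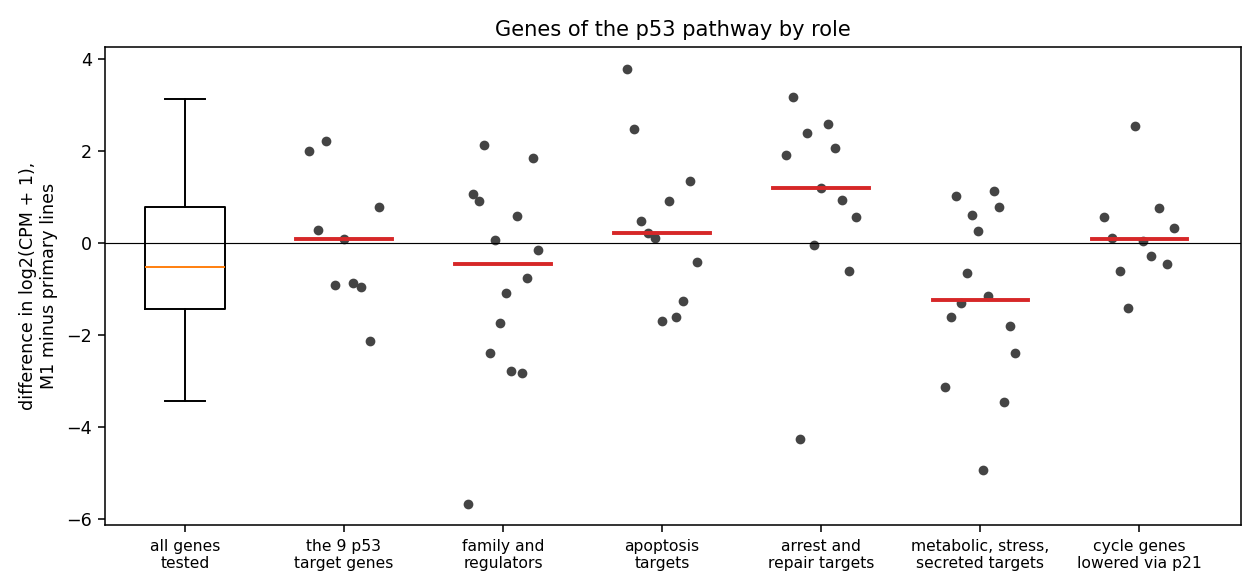
Difference in log2(CPM + 1) between M1 and the primary lines for each tested gene of the p53 pathway, by role, with red lines for the median of each list. The box at the left spans the 25th to 75th percentile of all 14888 genes tested, with whiskers to the 5th and 95th (-3.44 and 3.13). The medians run from -1.23 for the metabolic, stress and secreted targets to 1.20 for the arrest and repair targets.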

How the data were processed

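Total RNA of 4 murine SCLC lines was sequenced, with 1 library per line. The library kit is TruSeq total RNA per the labels and Lexogen QuantSeq, which reads 3' ends, per the paper's methods. The submitters' processing notes give mm10. The paper's methods describe an alignment with Bwa to GRCm39 that leads to mutation calls. Whether it also served this table, which counter was used and whether strand was used are not given in sources used here. The deposited values are CPM, which the authors scaled to all assigned reads, over 54838 lines of the table. The 85 lines without a symbol (0.00672% to 0.0130% of a library) were left out, and the 109 symbols found on several lines were added up. In each library, 1 read was set to the commonest CPM above 0. By a tolerance of 0.001 reads, 79.0% to 88.9% of the values above 0 were whole reads, so that the counts behind the CPM values were estimated and no count model was fitted. A CPM of 0 is written as listed at 0.

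Poisson intervals (95%, exact) were computed from the recovered reads with scipy 1.17.1. Differences were tested in R 4.3.3 by limma 3.58.1 over every gene that reached 1 CPM in any library, using log2(CPM + 1) (linear model, trended eBayes, two-sided, Benjamini-Hochberg, threshold 0.05), after the fit was tested on simulated data. On that scale, low genes show less change than they have. Of the 14888 genes tested, 14373 reached 1 CPM in a primary line. The others entered through M1 alone and could only come out higher, and the shares of tested genes higher and lower at an unadjusted p include them. Alternatives were pseudocounts of 0.1 and 0.5, TMM factors (trims of 30% and 5%), no filter, a mean of at least 10 CPM, eBayes without trend and leaving out each primary line. The genes and lists were chosen with earlier results of these data known. Besides the 10 genes, Mdm4, Cdkn2a, Trp63, Trp73, Ppm1d, Bax, Bbc3, Pmaip1, Fas and the 2 highest and 2 lowest tested genes of each list were named. Promoter sequences and positions are those of RefSeq on GRCm38.p6, the same assembly as mm10. A marker of neuroendocrine cells, and counts over the list that held it, are not reported here.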

Additional observations from a re-analysis of the deposited data

How the results depend on the processing

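Under 9 alternatives, 0 genes passed the threshold in either direction (limma, smallest adjusted p = 0.0791, without P4). For the 9 tested target genes the log2 differences kept their sign in 75 of 78 recomputed values. Part of this count was fixed in advance, since changes of filter or eBayes trend leave the differences as they are. Eda2r and Trp53inp1, listed at 0 in M1, could not turn positive either. When each primary line was left out in turn, Mdm2 ranged from -0.09 to 0.37 and Ccng1 from -0.51 to 0.67, with 0.08 and 0.27 over all lines, and the cause was not tested. The count of target genes below every primary line ranged from 0 to 5, the 5 being without P4. The 28 other named genes kept their sign in 239 of 239 values, a count that was partly fixed in advance. Those listed at 0 in M1 could not turn positive, and Trp73 and Ddb2 entered through M1 alone. Others were named as the highest or lowest of their lists. TMM factors moved the median log2 difference of all genes by 0.07. No paired analysis was possible because the groups share fewer than 2 replicate numbers and M1 is a single library. Each line is 1 library, and P4 and M1 held fewer genes above 0 than P1 and P5, whose part in the levels at or near 0 was not tested. A floor of 3 reads lay between 0.216 and 0.315 CPM.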
